A study of Mus musculus with 2 samples.

Results

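The CXCR2 and CXCR4 chemokine axis of neutrophils was described through 7 of the 32285 genes counted, taken by symbol: the ligands Cxcl1 (ENSMUSG00000029380), Cxcl2 (ENSMUSG00000058427), Cxcl3 (ENSMUSG00000029379), Cxcl5 (ENSMUSG00000029371) and Cxcl12 (ENSMUSG00000061353), and the receptors Cxcr2 (ENSMUSG00000026180) and Cxcr4 (ENSMUSG00000045382). Their transcripts were counted as unique molecular identifiers (UMIs) in single cells of mouse pancreatic tumors, in 2 droplet libraries. Both came from male C57BL/6J mice, 5 to 6 weeks of age when obtained, whose pancreas had been implanted with K210 cells, 1 mouse pancreatic tumor line. One library came from mice given PBS. The other came from mice given cmExoaCD11b, exosomes loaded with IL-12 mRNA and with the STING agonist cGAMP (5 µg per mouse) and coupled to an antibody against CD11b, a surface integrin of macrophages that neutrophils also carry. Doses were given into the peritoneum, and the cells of 3 mice were pooled into each library 48 h after treatment. The paper describes the sequenced cells as immune cells of the tumors. With 1 pooled library per treatment there is no replicate and no test between the treatments. Every interval below is a 95% interval of counting error only, and treatment, pool and library cannot be told apart.

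CXCL1, CXCL2, CXCL3 and CXCL5 are ELR-containing CXC chemokines. They are released by myeloid, epithelial and stromal cells in inflamed tissue, bind CXCR2 on neutrophils and draw these cells out of the blood. CXCL12, made mainly by stromal cells of the bone marrow and of tumors, binds CXCR4 and holds neutrophils and their precursors in the marrow. Maturing neutrophils are known to lose CXCR4 and gain CXCR2, and aged neutrophils to regain CXCR4.

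The genes of the ELR ligands lie in a cluster on chromosome 5. In the RefSeq annotation the genes of this stretch were, in order, Cxcl5, Ppbp, Pf4, Cxcl3, Cxcl15, Cxcl1 and Cxcl2. Of these, Pf4 is not an ELR ligand. The promoters of the 3 ligands that neutrophil-like cells transcribed are shown. Each of these genes was higher per UMI in mature than in immature cells, and higher again in inflammatory cells, in both libraries. Their levels in hypoxic and interferon cells followed different orders, as given below. Each window holds the 150 bases before the gene start on the plus strand (RefSeq, GRCm38.p6), at chr5:90891095-90891244 for Cxcl1, chr5:90903749-90903898 for Cxcl2 and chr5:90785951-90786100 for Cxcl3. The capitals mark the letters GGAATTTCC, a form of the binding motif of NF-kappaB, which turns on many inflammatory genes.
Cxcl1: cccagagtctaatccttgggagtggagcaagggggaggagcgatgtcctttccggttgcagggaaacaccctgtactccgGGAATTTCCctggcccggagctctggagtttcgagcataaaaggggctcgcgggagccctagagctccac
Cxcl2: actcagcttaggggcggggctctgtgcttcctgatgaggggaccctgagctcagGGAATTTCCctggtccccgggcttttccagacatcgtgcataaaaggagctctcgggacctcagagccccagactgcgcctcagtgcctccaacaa
Cxcl3: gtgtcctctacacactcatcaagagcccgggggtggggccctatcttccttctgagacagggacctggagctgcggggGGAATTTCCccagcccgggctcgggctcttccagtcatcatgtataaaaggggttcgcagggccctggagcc

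Each window held the motif once, at 61 bases before the start of Cxcl1, 87 bases before that of Cxcl2 and 63 bases before that of Cxcl3. Searched on both strands (as GGAATTTCC or its reverse complement GGAAATTCC), it stood in 62 of 32851 promoter windows of the same length, 0.189%. The windows of Cxcl12, Cxcr2 and Cxcr4 held no match, which says only that these letters were not in them. These matches describe the sequence and were not tested for binding or for enrichment. Other forms of the motif were not searched, so the share of windows is that of these letters alone.

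The libraries held 67143628 UMIs (PBS) and 81288480 UMIs (cmExoaCD11b), of which 50187092 and 62563818 were in the 6840 and 7086 cells kept, with medians of 3457 and 4102 UMIs per cell. The called cells shared 16 barcodes. A cell joined a class when at least 3 markers of that class exceeded free RNA, and was then called class-like. For the neutrophil class, 3 markers of the neutrophil list, or of the precursor or immature list described below, were enough. The lists of the other neutrophil stages gave no such entry. By this rule 4059 PBS cells (59.3%) and 4029 cmExoaCD11b cells (56.9%) were neutrophil-like, while 20.8% and 17.5% of cells entered no class. The 12 neutrophil markers summed to 179595 and 183855 CPM (UMIs of a gene over all UMIs of the class, scaled to 1000000) in these cells and to 1733 and 1855 CPM in B-like cells, with none at 0 in either.

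Neutrophil-like cells were divided by 6 marker lists without any member of the axis. These were precursor (Elane, Mpo and others, mostly primary granule genes), immature (Ltf, Camp, Ngp and others, mostly secondary granule genes) and mature (Retnlg, Mmp8 and others). Further lists were inflammatory (Tnf, Ccl3, Ccl4 and others), hypoxic (Vegfa, Egln3, Hilpda and others) and interferon (Rsad2, Ifit1 and others). The stages were filled unequally. Immature cells made up 22.5% of neutrophil-like cells in PBS and 34.8% in cmExoaCD11b, and mature cells 18.8% and 25.2%. Inflammatory cells made up 24.4% and 11.8%, hypoxic cells 18.7% and 6.55%, interferon cells 1.503% and 4.37%, and precursors 1.95% and 3.05%. The precursor and immature cells had median depths of 37288 and 15149 UMIs in PBS and of 43848 and 13770 UMIs in cmExoaCD11b, while the medians of the other 4 stages lay between 2717 and 3994 UMIs. Levels are therefore given in CPM of the summed class. They are compared for 1 gene at a time, since reads at the 3′ end do not set different genes on 1 scale.

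Cxcl2, encoding MIP-2, a CXCR2 ligand of activated myeloid cells, was higher per UMI at each step from precursor to inflammatory cells in both libraries. In PBS its level was 1036 CPM in precursor, 1882 CPM in immature, 18001 CPM in mature, 49174 CPM in inflammatory, 39544 CPM in hypoxic and 21284 CPM in interferon cells. In cmExoaCD11b the same stages stood at 628, 2437, 14894, 43189, 38961 and 21087 CPM. The order of the stages was the same in both libraries. Mature cells were 9.56-fold (9.43 to 9.69) above immature cells in PBS and 6.11-fold (6.05 to 6.18) in cmExoaCD11b. Inflammatory cells were a further 2.73-fold (2.71 to 2.76) and 2.90-fold (2.87 to 2.93) above mature cells. Most cells of the later stages held transcripts. After each cell was thinned to 1000 UMIs, 98.3% of inflammatory cells in PBS and 96.8% in cmExoaCD11b held at least 1 Cxcl2 UMI (99.6% and 98.7% before thinning). B-like cells, which should lack it, held one in 46.8% and 23.1% of thinned cells, so that the 51.0% and 46.6% of immature cells lay close to that background in PBS.

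Cxcl3, a close relative of Cxcl2 that also acts through CXCR2, was likewise higher per UMI at each step from precursor to inflammatory cells. Unlike Cxcl2, it was highest in hypoxic cells. In PBS it stood at 103 CPM in precursor, 127 CPM in immature, 1345 CPM in mature, 5390 CPM in inflammatory, 6808 CPM in hypoxic and 2201 CPM in interferon cells. In cmExoaCD11b the values were 50.1, 152, 674, 4852, 6368 and 875 CPM. The hypoxic cells were highest in both libraries, 1.26-fold (1.24 to 1.29) and 1.31-fold (1.27 to 1.36) above the inflammatory cells, whereas Cxcl2 was lower in hypoxic than in inflammatory cells by ratios of 0.804 (0.798 to 0.810) and 0.902 (0.890 to 0.914). Cxcl3 was found in part of the cells of each stage. Of thinned hypoxic cells, 61.9% in PBS and 63.7% in cmExoaCD11b had a Cxcl3 UMI, against 24.1% and 13.8% of mature cells and 10.9% and 1.96% of B-like cells.

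Cxcl1, encoding KC, the counterpart of the human growth-regulated chemokines, was found in few neutrophil-like cells. Like Cxcl2, Cxcl1 was highest in the inflammatory stage in both libraries. It was at 1 UMI (0.356 CPM) in PBS precursors and 5.62 CPM in immature, 29.6 CPM in mature, 166 CPM in inflammatory and 61.7 CPM in hypoxic cells, with 1 UMI in the interferon cells. In cmExoaCD11b precursors it was at 3.26 CPM, all 17 UMIs in 1 cell, followed by 4.97, 15.8, 98.15, 59.05 and 72.5 CPM in the later stages. Inflammatory cells again stood above mature cells, 5.60-fold (4.57 to 6.91) in PBS and 6.23-fold (4.75 to 8.19) in cmExoaCD11b, and the hypoxic level was 0.372 (0.312 to 0.442) and 0.602 (0.430 to 0.831) of the inflammatory level. Few cells carried these UMIs: 5.19% of thinned inflammatory cells in PBS and 2.99% in cmExoaCD11b (8.38% and 4.42% before thinning), against 1.21% and 0% of B-like cells, where 0 of 255 cells allows a share of up to 1.18%.

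**Figure D1:**
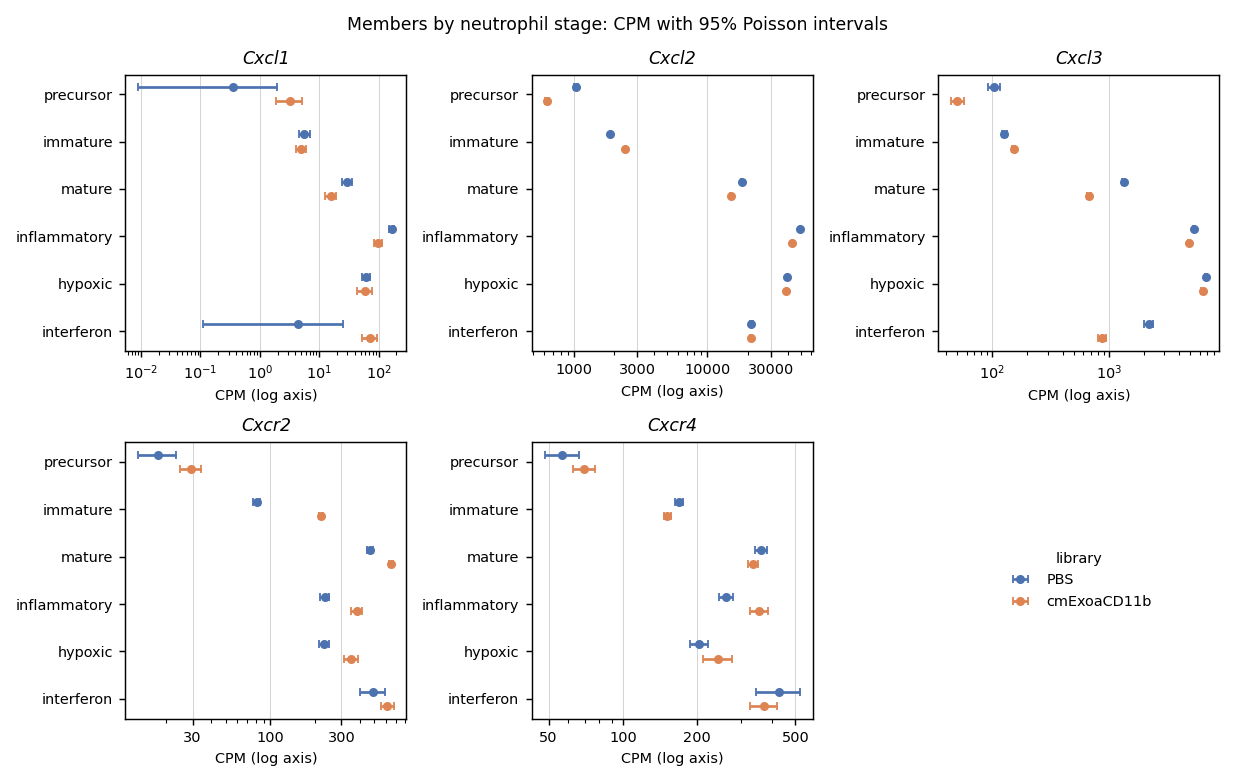
Level of each member in CPM (log axis) for the 6 neutrophil stages, with PBS and cmExoaCD11b as points and 95% Poisson intervals as bars. The 3 ELR ligands climb from precursor or immature cells to the inflammatory or hypoxic cells, whereas Cxcr2 is highest in mature and interferon cells (469.7 and 490.2 CPM in PBS).

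Cxcr2, the receptor of the ELR ligands and the one that brings neutrophils into tissue, peaked at another stage than its ligands. In PBS it was at 17.5 CPM in precursor, 80.9 CPM in immature, 469.7 CPM in mature, 233 CPM in inflammatory, 228 CPM in hypoxic and 490.2 CPM in interferon cells. In cmExoaCD11b the values were 29.2, 219, 647.5, 381, 349.8 and 613 CPM. Among the 6 stages, mature and interferon cells were highest in both libraries. They did not differ beyond the counting error, with interferon-to-mature ratios of 1.04 (0.853 to 1.27) and 0.947 (0.853 to 1.05). Neutrophil-like cells of no stage held 483 CPM in PBS and 695 CPM in cmExoaCD11b. The inflammatory cells, highest in Cxcl2, held less Cxcr2 than mature cells, with ratios of 0.496 (0.456 to 0.539) and 0.588 (0.537 to 0.642), and the hypoxic cells stood at 0.486 (0.443 to 0.533) and 0.540 (0.479 to 0.607) of the mature level. Among thinned cells, 37.2% of mature and 18.2% of inflammatory cells had a Cxcr2 UMI in PBS, and 48.01% and 25.4% in cmExoaCD11b, against 0% and 0.392% of B-like cells.

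Cxcr4, the CXCL12 receptor, was higher per UMI at each step from precursor to mature cells. Counted per cell, the step from the deeper immature cells to mature cells went the other way. In PBS 915 immature cells held 2675 Cxcr4 UMIs and 763 mature cells 1385. In cmExoaCD11b 1403 immature cells held 3558 and 1017 mature cells 1894. The PBS level of Cxcr4 was 56.7 CPM in precursor, 169 CPM in immature, 363 CPM in mature, 262 CPM in inflammatory, 204 CPM in hypoxic and 428 CPM in interferon cells. In cmExoaCD11b these were 69.7, 151, 335.5, 355, 243 and 373 CPM. Neutrophil-like cells of no stage held 400 CPM in PBS and 627 CPM in cmExoaCD11b. Mature cells stood 2.15-fold (2.01 to 2.29) and 2.22-fold (2.10 to 2.35) above immature cells. The next step had different values, with the inflammatory cells at 0.722 (0.663 to 0.786) of the mature level in PBS and at 1.06 (0.960 to 1.17) in cmExoaCD11b.

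Of the 5 members measurable in neutrophil-like cells, all 5 differed at least 2-fold between mature and immature cells in both libraries, where 39.9% of all genes tested did so in PBS and 38.4% in cmExoaCD11b. Between inflammatory and mature cells 4 of 5 did so in PBS and 3 of 5 in cmExoaCD11b, beside 29.3% and 23.3% of all genes tested. Genes tested were those with at least 50 UMIs in the cells compared. The inflammatory list was made of genes that share inducers with the ELR ligands, so the high ligand levels of those cells are a description of the gate as well as of the cells.

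The balance of the receptors was followed as the Cxcr4 share of all Cxcr2 and Cxcr4 UMIs, an index compared between cells and not a ratio of molecules. It was lower in mature than in precursor and immature cells in both libraries. In PBS it was 76.4% (70.1 to 82.0) in precursor, 67.6% (66.2 to 69.1) in immature and 43.6% (41.9 to 45.3) in mature cells, and then 52.9% (50.6 to 55.3) in inflammatory and 47.2% (44.4 to 50.1) in hypoxic cells. In cmExoaCD11b it was 70.5% (66.3 to 74.4), 40.9% (39.9 to 41.9), 34.1% (32.9 to 35.4), 48.3% (45.3 to 51.3) and 41.0% (36.7 to 45.4) in the same order. The index was lowest in mature cells in both libraries and higher in inflammatory cells. It does not follow Cxcr4 alone. From immature to mature cells Cxcr4 was higher per UMI, 2.15-fold in PBS and 2.22-fold in cmExoaCD11b, and Cxcr2 likewise, 5.81-fold and 2.96-fold. In inflammatory cells Cxcr4 was at 0.722 and 1.06 of the mature level, and Cxcr2 at 0.496 and 0.588. The widest gap between the libraries was in immature cells, whose balance was near that of mature cells in cmExoaCD11b and near that of precursors in PBS. In these immature cells Cxcr2 stood at 80.9 CPM in PBS and 219 CPM in cmExoaCD11b, and Cxcr4 at 169 and 151 CPM. Cells with UMIs of both receptors made up 9.93% of thinned mature cells in PBS and 13.1% in cmExoaCD11b, and 1.45% and 3.23% of immature cells.

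**Figure D2:**
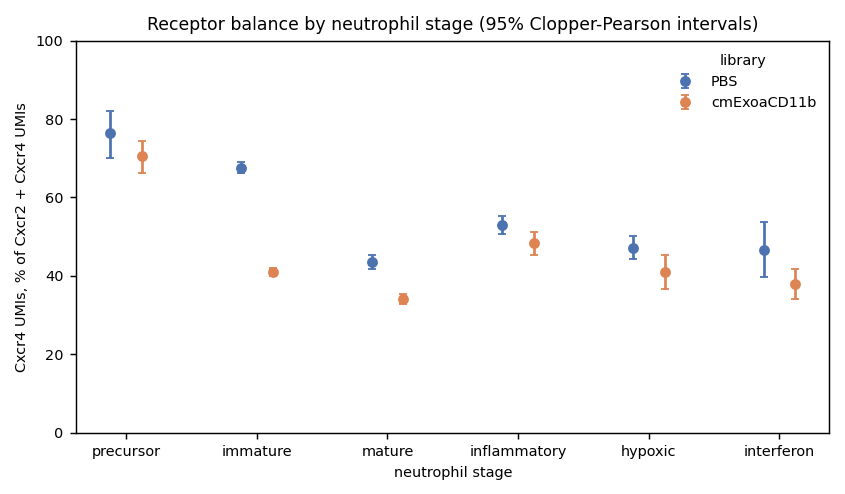
Cxcr4 UMIs as a percentage of Cxcr2 plus Cxcr4 UMIs in each neutrophil stage and library, with exact 95% binomial intervals. The largest separation of the libraries is in immature cells, at 67.6% in PBS and 40.9% in cmExoaCD11b.

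Between the libraries, neutrophil-like cells as a whole held less of the ELR ligands and more Cxcr2 after cmExoaCD11b. Cxcl1 stood at 38.3 CPM in PBS and 14.01 CPM in cmExoaCD11b, a ratio of 0.366 (0.331 to 0.404). Cxcl2 stood at 13928 and 7293 CPM, a ratio of 0.524 (0.521 to 0.526), and Cxcl3 at 1628 and 574 CPM, a ratio of 0.352 (0.347 to 0.358). All 3 ligands were lower in the treated library. Cxcr2 was at 170.1 and 285 CPM, a ratio of 1.67 (1.62 to 1.73), and Cxcr4 at 204 and 194.5 CPM, a ratio of 0.953 (0.922 to 0.985). Thus 2 of 5 members, Cxcl1 and Cxcl3, were at least 2-fold lower and none at least 2-fold higher. Among the 11754 genes tested, 6.07% passed 2-fold, 3.64% lower and 2.43% higher, with a median ratio of 1.09. The share of thinned cells with a Cxcr2 UMI was 21.0% (19.8 to 22.3) in PBS and 31.0% (29.5 to 32.4) in cmExoaCD11b (52.0% and 73.1% before thinning). For Cxcr4 it was 20.3% (19.1 to 21.6) and 22.3% (21.0 to 23.6), and the ratio of Cxcr4 turned to 1.13 when each cell counted equally.

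The ratios of neutrophil-like cells were also taken at a fixed stage mix. Both libraries were given the same weights for the 6 stages, a calculation chosen after seeing the data. Each weight was the stage's UMIs over both libraries and not its cells. The deep immature cells (15826018 UMIs in PBS and 23527483 in cmExoaCD11b) thus weighed most. The ratio was then 0.732 for Cxcl1, 0.935 for Cxcl2 and 0.844 for Cxcl3. The Cxcr2 ratio was 1.83 and the Cxcr4 ratio 0.977. This left out neutrophil-like cells of tied stages (192 in PBS and 316 in cmExoaCD11b) or of none (301 and 255), which the whole-class ratios include. In cells of tied stages the ratios were 0.170 for Cxcl1, 0.439 for Cxcl2 and 0.208 for Cxcl3. In cells of no stage they were 0.739, 0.881 and 0.898. Ligand ratios at this fixed mix of UMIs lay closer to 1 than those of the whole class, and that of Cxcr2 did not. Whether this holds at a fixed mix of cells was not tested. The inflammatory list shares inducers with the ELR ligands, so fixing its share also fixes part of the ligand level. The part of this overlap and of the left-out cells in the ratios was not tested. The inflammatory and hypoxic stages, richest in ligand, were the ones with smaller shares of cells in cmExoaCD11b, and whether treatment or sampling of the pools set these shares was not tested.

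Within stages, Cxcr2 was higher in cmExoaCD11b in all 6. The ratio was 1.67 (1.20 to 2.36) in precursor, 2.70 (2.54 to 2.88) in immature, 1.38 (1.30 to 1.46) in mature, 1.63 (1.47 to 1.82) in inflammatory, 1.53 (1.33 to 1.76) in hypoxic and 1.25 (1.011 to 1.56) in interferon cells. Immature cells thus showed the largest ratio, with a Cxcr2 UMI in 9.497% of thinned cells in PBS and 19.3% in cmExoaCD11b. In immature cells the mature list also stood higher, at 9481 and 11711 CPM, and the immature list at 121639 and 116198 CPM, and the part of this in the Cxcr2 ratio was not tested. Over 10 alternative calculations the immature ratio lay between 2.39 and 2.79, and the mature ratio between 1.28 and 1.63. Of 5 members tested in immature cells only Cxcr2 passed 2-fold, beside 4.36% of genes. In mature cells 0 of 5 did, beside 6.43%, with Cxcl3 just short of it.

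The ELR ligands had ratios below 1 in mature, inflammatory and hypoxic cells, and not under every alternative calculation. Cxcl3 in mature cells had a ratio of 0.501 (0.481 to 0.523), Cxcl1 one of 0.532 (0.399 to 0.709) and Cxcl2 one of 0.827 (0.819 to 0.836). The mature ratios of Cxcl2 and Cxcl3 turned to 1.10 and 1.19 when only cells above a ranked UMI cut-off were used. The hypoxic list stood at 961 and 519 CPM in these mature cells, and its part in the ligand ratios was not tested. In inflammatory cells the ratio was 0.878 (0.870 to 0.886) for Cxcl2 and 0.900 (0.876 to 0.925) for Cxcl3, where the median of all genes was 0.930. Cxcl1 was at 0.592 (0.491 to 0.711) there, and at 1.88 under the same cut-off. In hypoxic cells Cxcl2, Cxcl3 and Cxcl1 had ratios of 0.985, 0.935 and 0.958. Over 10 alternative calculations these lay between 0.741 and 1.04 for Cxcl2, between 0.551 and 0.990 for Cxcl3 and between 0.156 and 2.17 for Cxcl1, so the directions of Cxcl2 and Cxcl1 are not firm. In these cells 31 of the 52 Cxcl1 UMIs in cmExoaCD11b came from 1 cell, and the ratio without the highest cell of each library was 0.444. None of 5 members passed 2-fold in either stage, where 8.45% and 7.02% of genes did.

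In immature cells the ligands Cxcl2 and Cxcl3 stood at ratios of 1.30 (1.28 to 1.31) and 1.20 (1.13 to 1.27). These turned to 0.879 and 0.702 when no doublets were removed, so neither direction is firm. The small interferon stage (61 and 176 cells) had Cxcl2 at a ratio of 0.991 (0.959 to 1.02) and Cxcl3 at 0.397 (0.352 to 0.449). Cxcl1 had 1 UMI there in PBS and 49 in cmExoaCD11b, a ratio of 16.3 (2.79 to 655.9). Cxcl1 reached the minimum of 50 UMIs only through the library where it was high and is not counted. Of the other 4 members 1 passed 2-fold (Cxcl3), beside 29.2% of genes in these few cells. The gated interferon cells differed between the libraries in other markers too. The neutrophil list stood at 37786 and 104395 CPM in PBS and cmExoaCD11b, the immature list at 2019 and 10127 CPM, the mature list at 3904 and 13845 CPM and the hypoxic list at 2772 and 614 CPM. Their part in the ratios of this stage, that of Cxcr2 included, was not tested. The precursors had ratios of 0.606 for Cxcl2 and 0.488 for Cxcl3, with 27.6% of Cxcl2 UMIs of PBS in 1 cell.

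Cxcr4 moved in different directions between stages. Its ratio was 1.36 (1.22 to 1.51) in inflammatory and 1.19 (1.012 to 1.40) in hypoxic cells, and 0.895 (0.851 to 0.941) in immature and 0.924 (0.862 to 0.991) in mature cells. In the small stages, precursors had a ratio of 1.23 (1.02 to 1.49) and interferon cells one of 0.872 (0.687 to 1.12). The mature ratio was 1.02 as a mean over cells, so of the 4 larger stages the inflammatory, hypoxic and immature ratios lay on 1 side of 1 in each of 10 alternatives. Interferon markers differed beside these values, at 209 and 1035 CPM in mature and 650.2 and 1883 CPM in inflammatory cells, and their part in the receptor values was not tested.

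**Figure D3:**
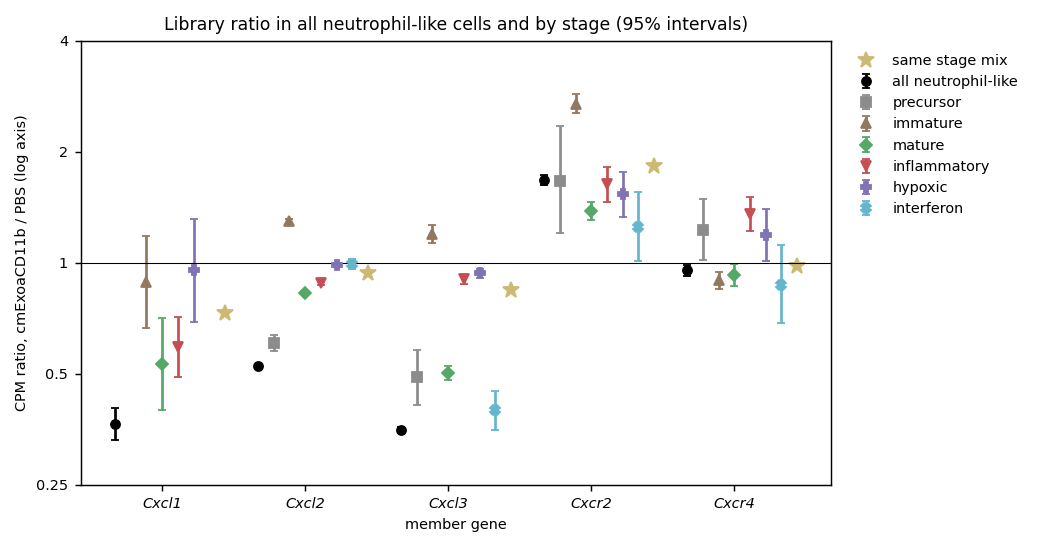
Ratio of CPM, cmExoaCD11b over PBS (log axis), of each member in neutrophil-like cells and in each stage, with exact 95% intervals. Stars are the neutrophil ratios at the same stage mix, weighted by UMIs, without cells of tied stages or of none. Cxcr2 lies above 1 in every stage, while the ligand ratios of the whole class (0.352 to 0.524) lie below most of their stage ratios; points with few UMIs or very wide intervals, such as Cxcl1 in precursor and interferon cells, are left out.

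Cxcl1 was higher per UMI in macrophage-like than in neutrophil-like cells. Its level there was 261 CPM in PBS (259 cells) and 235 CPM in cmExoaCD11b (63 cells), which is 6.83-fold and 16.8-fold above neutrophil-like cells. These folds were smaller when each cell counted equally, as given below. Inflammatory neutrophil-like cells alone stood at 166 and 98.15 CPM. Between libraries the macrophage-like ratio was 0.900 (0.759 to 1.06), and it was 0.645 without the highest cell of each library. Monocyte-like cells had 168 and 18.3 CPM, a ratio of 0.109 (0.0803 to 0.144), with 143 of the 307 PBS UMIs in 1 cell. Epithelial-like cells had 8 UMIs in PBS and 74 in cmExoaCD11b, of which 58 were in 1 cell. The fibroblast-like cells, 7 and 6 in number, held 81 and 19 UMIs (499 and 127 CPM), with 61 and 15 of them in 1 cell of each library. In PBS 1 of 2 endothelial-like cells held 14 UMIs (474 CPM for that class). Single cells thus held much of the Cxcl1 of these smaller classes.

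Monocyte-like and macrophage-like cells transcribed Cxcl2 and Cxcl3 below the level of neutrophil-like cells. Cxcl2 stood at 5498 and 2339 CPM in monocyte-like cells, a ratio of 0.425 (0.413 to 0.439), and at 6531 and 4293 CPM in macrophage-like cells, a ratio of 0.657 (0.633 to 0.683). Cxcl3 stood at 758.5 and 132 CPM in monocyte-like cells, a ratio of 0.174 (0.155 to 0.194), and at 369 and 93.5 CPM in macrophage-like cells, a ratio of 0.254 (0.195 to 0.325). Both genes were lower after cmExoaCD11b in both classes. Of 5 members tested, Cxcr2 reached the minimum of 50 UMIs only through 1 library in each class and is not counted. It had 43 and 143 UMIs in monocyte-like cells and 59 and 13 in macrophage-like cells. Of the others, 3 passed 2-fold in monocyte-like cells (Cxcl1, Cxcl2 and Cxcl3, all lower), beside 7.29% of genes, and 1 in macrophage-like cells (Cxcl3), beside 8.2%. The macrophage list itself stood at 27985 and 15641 CPM in the 259 and 63 macrophage-like cells, and its part in their ligand ratios was not tested. With cells above the ranked cut-off alone, Cxcl2 in macrophage-like cells was 1.43-fold (PBS) and 1.30-fold (cmExoaCD11b) above that in neutrophil-like cells, and in PBS monocyte-like cells 1.22-fold above it. The 12 neutrophil markers stood at 9796 and 15638 CPM in monocyte-like cells and at 5861 and 4513 CPM in macrophage-like cells, and their part in the ligand levels was not tested.

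T-like and B-like cells also had lower Cxcl2 and Cxcl3 in cmExoaCD11b, near or above the level estimated from free RNA. Cxcl2 in T-like cells was 1167 and 293.5 CPM, a ratio of 0.252 (0.234 to 0.271), and in B-like cells 725 and 278.5 CPM, a ratio of 0.384 (0.341 to 0.433). Droplets without cells held 15345 and 7180 CPM of Cxcl2, and at the estimated free RNA shares of 2.43% and 2.57% this gives 373 and 184 CPM. These shares were estimated from 6 neutrophil genes in the same T-like and B-like cells, so the comparison is not independent of them. Of Cxcl3, T-like cells held 214 and 16.1 CPM and B-like cells 146 and 21.7 CPM, beside 48.9 and 17.0 CPM from free RNA. Single cells held 24.5% of the T-like Cxcl2 UMIs and 54.5% of the B-like Cxcl3 UMIs in PBS. In T-like cells 2 of 3 members tested passed 2-fold (Cxcl2 and Cxcl3), beside 3.92% of genes, though Cxcl3 in cmExoaCD11b was not above free RNA. In B-like cells Cxcl3, with 213 and 29 UMIs, reached the minimum of 50 UMIs only through PBS and is not counted, and 1 of the other 2 members passed (Cxcl2), beside 4.15%. When no doublets were removed the B-like ratios were 0.537 for Cxcl2 and 0.602 for Cxcl3, both short of 2-fold. Under that setting the T-like ratios were 0.400 and 0.201. In DC-like cells 0 of 2 did, beside 8.2%. Their Cxcl2 ratio was 1.645 (1.39 to 1.95) and became 0.963 without the highest cell of each library, since 224 of 461 UMIs in cmExoaCD11b were in 1 cell.

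Cxcr2 UMIs lay almost wholly in neutrophil-like cells, and Cxcr4 UMIs also in lymphoid and other myeloid cells. Neutrophil-like cells held 92.1% of Cxcr2 UMIs of the kept cells in PBS and 94.1% in cmExoaCD11b, and 66.2% and 72.5% of Cxcr4 UMIs. Monocyte-like cells had Cxcr2 at 23.6 and 45.9 CPM, a ratio of 1.94 (1.37 to 2.80), and macrophage-like cells at 15.7 and 18.4 CPM. T-like cells had 5.35 and 8.33 CPM of Cxcr2, and B-like cells 2.74 and 2.24 CPM, where free RNA gives 2.22 and 4.06 CPM. Cxcr4 stood at 294.5 and 321 CPM in B-like cells, a ratio of 1.09 (0.951 to 1.25), at 264 and 202 CPM in monocyte-like cells, 0.765 (0.679 to 0.863), and at 183 and 259 CPM in macrophage-like cells, 1.41 (1.19 to 1.67). T-like cells had 109.7 and 122 CPM of Cxcr4, a ratio of 1.11 (0.947 to 1.31), NK-like cells 290.1 and 169 CPM, 0.583 (0.369 to 0.943), and plasma-like cells 46.5 and 61.8 CPM. B-like cells thus stood above neutrophil-like cells (204 and 194.5 CPM) in both libraries, though at 0.879 of them in cmExoaCD11b with the ranked cut-off. Epithelial-like cells held 6 and 3 UMIs of Cxcr4. The Cxcr4 share of both receptors was 99.1% and 99.3% in B-like cells, 91.8% and 81.5% in monocyte-like cells and 54.5% and 40.6% in neutrophil-like cells.

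**Figure D4:**
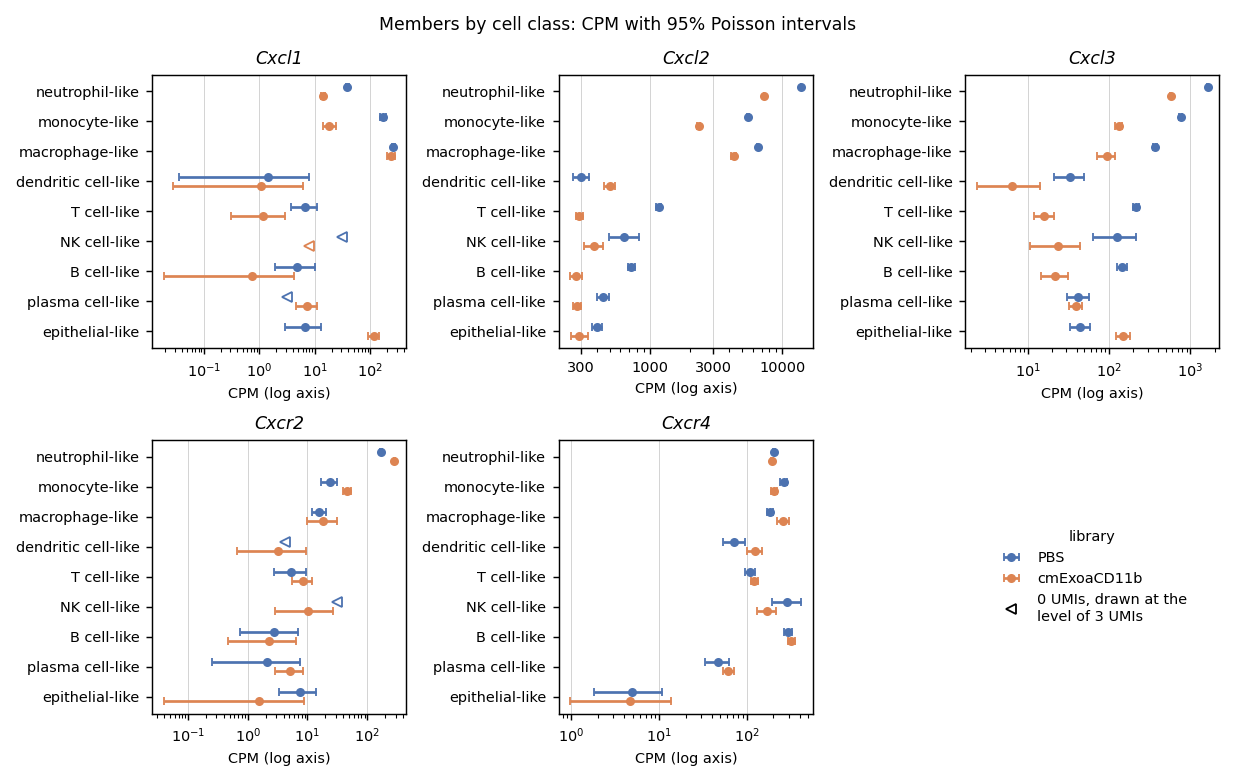
Level of each member in CPM (log axis) for the larger cell classes and both libraries, with 95% Poisson intervals; open triangles mark classes with 0 UMIs, drawn at the level of 3 UMIs. Cxcr2 is concentrated in neutrophil-like cells, Cxcr4 reaches 294.5 and 321 CPM in B-like cells, and Cxcl1 is highest in macrophage-like cells among the classes drawn.

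Cxcl5, an ELR ligand mostly of epithelial cells, was almost absent from neutrophil-like cells (4 and 2 UMIs). Epithelial-like cells, which by their markers can be tumor cells, held 146 of its 172 UMIs in PBS and 60 of 67 in cmExoaCD11b. The level there was 120.1 CPM in 43 cells and 94.0 CPM in 32 cells, a ratio of 0.782 (0.569 to 1.06), whose interval holds 1. In each library 1 cell gave more of them than all the others together, with 79 and 31 UMIs.

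Cxcl12, the CXCR4 ligand, had 224 UMIs in PBS and 23 in cmExoaCD11b, and most of these were in 4 cells. The fibroblast-like cells, 7 and 6 in number, held 32 and 18 UMIs, of which 28 and 15 were in 1 cell of each library. In PBS 122 UMIs were in 1 cell that the gate called erythroid-like, and 46 in 1 cell of more than 1 class. The first of these also held 41 UMIs of Sparc, 38 of Bgn and 52 of Igfbp7, genes of stromal and vascular cells, and 30 UMIs of fibroblast markers against 20 of erythroid markers, so its gate goes against its content. Stromal cells were too few in these libraries for a level of Cxcl12 in tumor tissue. The erythroid-like cells (7 and 31) held neutrophil markers at 21523 and 62822 CPM and are given no levels of the other members.

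By source, neutrophil-like cells held most UMIs of Cxcl2 and Cxcl3 in both libraries, which also depends on how many cells of each class were captured. Any selection of immune cells before sequencing would also bear on these shares, and its part was not tested. Their share of Cxcl2 was 75.8% in PBS and 88.2% in cmExoaCD11b, and of Cxcl3 75.8% and 87.0%. Cells without a class, shallow at medians of 1969 and 1582 UMIs, held 13.6% and 4.53% of Cxcl2 at 20030 and 5908 CPM. Cxcl1 was spread more widely, with 32.1% and 52.8% in neutrophil-like cells and 26.5% and 14.8% in macrophage-like cells. With the ranked cut-off alone the neutrophil share of Cxcl1 was 13.1% and 32.1%.

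**Figure D5:**
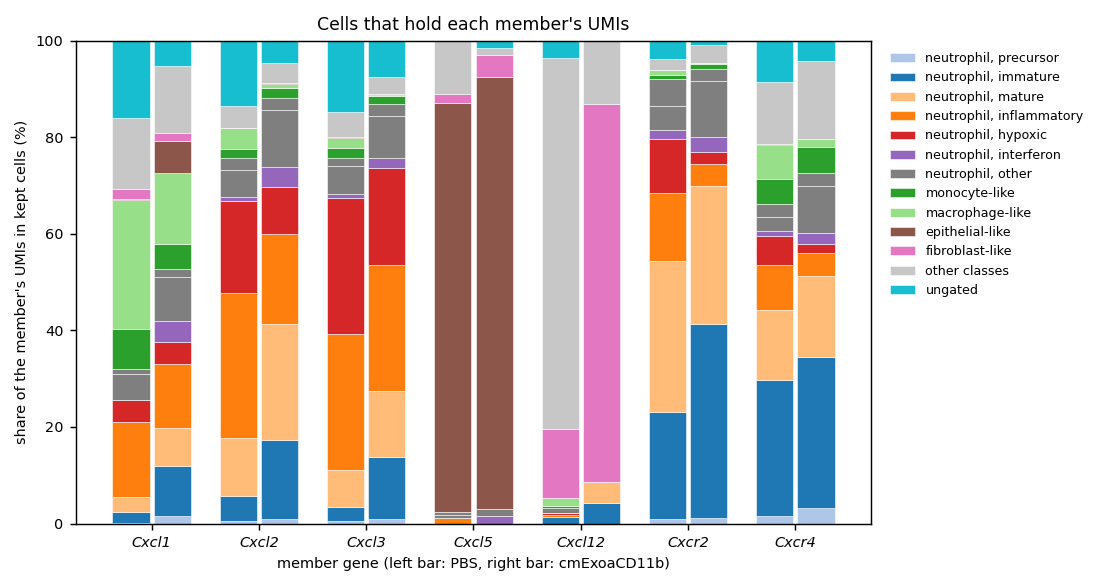
Share of the UMIs of each member held by each class or neutrophil stage, in percent of its UMIs in kept cells, with PBS as the left and cmExoaCD11b as the right bar of each pair; grey marks neutrophil-like cells without a single stage. Neutrophil-like cells hold 92.1% and 94.1% of Cxcr2, Cxcl5 lies in epithelial-like cells, and the Cxcl12 bars rest on 4 cells.

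Other genes of the axis were followed in neutrophil-like cells by lists, with the share past 2-fold read against 6.07% of all genes. Of 3 further ligands tested, Mif, a CXCR2 and CXCR4 ligand, was at least 2-fold lower in cmExoaCD11b, at 390.6 and 156 CPM (ratio 0.398, 0.387 to 0.411). Ppbp, a platelet chemokine, had 125 and 3 UMIs (ratio 0.0176, 0.00359 to 0.0527). It reached the minimum of 50 UMIs only through PBS, so its ratio is a description and no support for the list. Of the Ppbp UMIs of PBS, 106 lay in hypoxic cells. Hmgb1, which acts with CXCL12, was at a ratio of 1.20, and Cxcl15 had 9 and 10 UMIs. By stage, Mif was highest in hypoxic cells (1500 and 1033 CPM) and lowest in immature cells (59.9 and 39.4 CPM).

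Of 4 further receptors and scavengers tested, Ackr3, a CXCL12 scavenger, had 69 and 5 UMIs (ratio 0.0532, 0.0168 to 0.130). It too reached the minimum only through PBS and is not counted, and none of the other 3 passed 2-fold. Cxcr1, a second receptor for ELR ligands, had a ratio of 0.767, Cd74, a MIF receptor, one of 0.958, and Dpp4, a protease that inactivates CXCL12, one of 1.17 (0.716 to 1.92), while Ackr1 had 1 UMI in each library. Among 14 genes of receptor signalling and desensitization, only Rgs1, which limits chemokine receptor signals, passed 2-fold, at a ratio of 0.254 (0.239 to 0.270). Grk6, a receptor kinase, was highest at 1.39, and the median of the list was 1.07. None of 6 other chemoattractant receptors passed 2-fold. Among them Fpr2, a formyl peptide receptor, was highest at 1.74 and Ptafr, the receptor of platelet-activating factor, lowest at 0.679.

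Of 8 genes of mobilization and maturation, Csf3, encoding the granulocyte growth factor G-CSF, had 13 and 97 UMIs (ratio 5.48, 3.06 to 10.7). It reached the minimum only through cmExoaCD11b and is not counted, and none of the other 7 passed 2-fold. Cebpb, a factor of emergency granulopoiesis, was lowest in that list at 0.726, and the median of the 8 genes was 1.255. Of 12 inducers and regulators of the ELR ligands, 2 were at least 2-fold lower: Il1a, at a ratio of 0.276 (0.262 to 0.289), and Tnf, at 0.389 (0.378 to 0.400), which was also a marker of the inflammatory gate. Il17ra, a receptor of IL-17, was highest at 1.24, and the median of that list was 0.900.

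Genes with patterns most like each member were sought over 28 points (the classes and stages of both libraries) by Pearson correlation of log2(CPM + 10). These points share libraries and depth, and the values are descriptions. Cxcr2 was most like Il1f9 (r = 0.981), Csf3r (0.973) and Slfn4 (0.968), and Cxcr4 most like Pde4b (0.918), Pag1 (0.898) and Birc3 (0.890). Cxcl2 was most like Rab20 (0.978), Clec4d (0.973) and Arg2 (0.973), Cxcl3 most like P2ry2 (0.942), E230016K23Rik (0.941) and Gm28981 (0.935), and Cxcl1 most like Ccl2 (0.825), Ctsl (0.820) and Plod1 (0.805). Csf3r and Clec4d were themselves gate markers. Cxcl5 went with the epithelial genes Cldn6, Rbp4 and Krt20 (0.999 each), and Cxcl12 with Agbl3 (0.780), Dcn (0.740) and Ctsk (0.644). The Cxcl5 values rest on the few epithelial-like cells described above. The 4 cells with most Cxcl12 UMIs were in none of the points. The highest Cxcl12 level among the points was 1.06 CPM, from 4 UMIs in PBS macrophage-like cells. Beside the 10 CPM added before taking logs, the Cxcl12 correlations thus rest on counts near the floor.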

How the data were processed

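Single-cell suspensions of pancreatic tumors were sequenced as 2 droplet libraries (10x Genomics, 3′ ends), PBS and cmExoaCD11b, with 1 pool of 3 mice each. The authors deposited raw UMI counts per gene and barcode, neither normalized nor filtered, with the empty droplets included. The matrix headers name Cell Ranger 7.1.0, whereas the methods of the study name an older version, and the genome build is not given in the sources used here.

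Cells were the barcodes above a ranked cut-off (the 99th percentile of the 3000 largest, divided by 10) plus those with at least 500 UMIs whose profile differed from empty droplets (multinomial test, 10000 simulations, false discovery rate 0.01). Of these, cells with fewer than 200 genes or over 20% mitochondrial UMIs were dropped. Scrublet scores (30 principal components) removed the top 0.8% per 1000 cells as doublets, 422 and 455 cells, because its automatic threshold marked 0. A marker counted when its UMIs exceeded free RNA at 10% of the cell's UMIs (Poisson threshold 0.01). A class needed 3 markers and a marker fraction 1.25 times that of the next class, and a stage needed 2 markers of its list. The neutrophil class took the highest fraction among the neutrophil, precursor and immature lists. This gate was settled after the files had been seen and uses no member of the axis. Cells of several classes or of none were kept apart.

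Levels are summed UMIs per 1000000 UMIs of the class (CPM), with exact Poisson intervals, ratios carry exact conditional intervals and shares Clopper-Pearson intervals, all at 95% and for counting error only. Shares were taken after thinning each cell to 1000 UMIs, leaving out shallower cells. With 1 library per treatment no test was run between libraries, and a gene with 0 UMIs was set against 3 counts. The background is the share of genes past 2-fold among those with at least 50 UMIs in the class. The ratio intervals were tested on simulated Poisson counts, the model that they assume. This could not show how they behave where single cells hold much of a gene's UMIs.

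The members, marker lists and pathway lists were chosen with earlier results of these data known. Named were all 7 members. From the pathway lists, those of highest and of lowest ratio in each list (50 UMIs or more in neutrophil-like cells) were named, plus every ligand and receptor of the first lists. For each member with at least 200 UMIs the 3 genes of highest correlation were named. Promoters came from RefSeq (GRCm38.p6), with entries for 6 of 7 members. Alternatives changed cell calling, filters, doublets, the gate, free RNA, pooling, the highest cells, thinning and minimum UMIs. Ero1a, of the hypoxic list, was not analysed here. Python 3.11.15, numpy 2.4.6, scipy 1.17.1, pandas 2.3.3 and scanpy 1.11.5 were used.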

Additional observations from a re-analysis of the deposited data

Results flagged for a closer look

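The ratio between the libraries differed in direction between cell classes for 4 members, with intervals on opposite sides of 1. These differences were not tested, since each ratio rests on 1 library per treatment. For Cxcl1 the ratio was 17.6 in epithelial-like cells, with 58 of 74 UMIs of cmExoaCD11b in 1 cell, and 0.109 in monocyte-like cells. With 8 UMIs in PBS, the epithelial-like value reached the minimum of 50 UMIs only through cmExoaCD11b. It is a description and no support for opposite directions. For Cxcl2 it was 1.645 in DC-like cells, and 0.963 there without the highest cell of each library, against 0.252 in T-like cells. For Cxcl3 it was 3.38 in epithelial-like cells, with 87 of 96 UMIs in 1 cell, and 0.0750 in T-like cells. The T-like level of Cxcl3 in cmExoaCD11b was not above that estimated from free RNA. For Cxcr4 it was 1.72 in DC-like cells (50 and 114 UMIs) and 0.583 in NK-like cells (28 and 65 UMIs). The NK-like value too reached the minimum of 50 UMIs only through cmExoaCD11b. In monocyte-like cells, with 482 and 631 UMIs, the Cxcr4 ratio was 0.765 (0.679 to 0.863).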

How the results depend on the processing

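No paired analysis was possible because each treatment has 1 library. Of 806 recalculated values, 519 stayed within the counting interval and 269 moved out of it. A further 18 crossed to the other side of 1 where that interval had excluded 1. Crossings where the interval held 1 are not among these 18, such as those of Cxcl1 in hypoxic cells (0.156 to 2.17). The cause of these changes was not tested. In neutrophil-like cells the ranked cut-off alone gave ratios of 0.435 (Cxcl1), 0.775 (Cxcl2), 0.517 (Cxcl3) and 2.19 (Cxcr2). The mean over cells gave 0.523, 0.601, 0.431, 1.54 and, for Cxcr4, 1.13. Leaving out the top 1% of cells gave 0.294 (Cxcl1), 0.520 (Cxcl2) and 0.323 (Cxcl3). Keeping doublets gave 0.410 (Cxcl1) and 0.511 (Cxcl2), and the stricter gate 0.540 (Cxcl2) and 0.367 (Cxcl3). Of the alternatives chosen after seeing the data, division by the median ratio of all genes gave 0.480 (Cxcl2), 0.323 (Cxcl3), 1.54 (Cxcr2) and 0.874 (Cxcr4). The same stage mix by UMIs was also chosen then and left out cells of tied stages or of none. It gave 0.732, 0.935, 0.844 and 1.83 (Cxcl1, Cxcl2, Cxcl3 and Cxcr2).

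By stage, keeping doublets turned Cxcl2 and Cxcl3 in immature cells to 0.879 and 0.702. The ranked cut-off turned Cxcl2 and Cxcl3 in mature cells to 1.10 and 1.19 and Cxcl1 in inflammatory cells to 1.88. The mean over cells turned Cxcr4 in mature cells to 1.02. Cxcl2 in hypoxic cells became 1.00 (strict gate, 1.002), 1.03 (mean over cells) and 1.04 (median-scaled). In DC-like cells Cxcl2 became 0.960 (strict gate) and 0.963 (without the top 1% or the highest cell), and Cxcr4 0.995 (mean over cells). The inflammatory-to-mature ratio of Cxcr2 was 0.651 and 0.644 (ranked) and 0.432 and 0.504 (mean over cells) in PBS and cmExoaCD11b.

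Cxcl1 in macrophage-like over neutrophil-like cells was 20.3 (ranked), 8.06 (strict gate), 2.81 (mean over cells) and 15.2 (without the top 1%) in PBS, and 44.4 (ranked), 13.6 (doublets kept), 4.83 (mean over cells) and 40.8 (without the top 1%) in cmExoaCD11b. The ranked cut-off turned Cxcl2 over neutrophil-like cells to 1.22 (PBS monocyte-like), 1.43 (PBS macrophage-like) and 1.30 (cmExoaCD11b macrophage-like), and Cxcr4 in cmExoaCD11b B-like cells to 0.879. Shares of cells depend on depth. Thinned to 500 UMIs and unthinned, Cxcr2 was in 12.02% and 52.0% (PBS) and 18.2% and 73.1% (cmExoaCD11b), and Cxcr4 in 11.6% and 53.2% (PBS) and 13.1% and 64.4% (cmExoaCD11b).

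Neutrophil shares of ligand UMIs under the ranked cut-off were 13.1% and 32.1% (Cxcl1), 63.4% and 86.0% (Cxcl2) and 61.2% and 85.6% (Cxcl3). Without the highest cell they were 33.7% and 56.3% (Cxcl1), 75.9% (Cxcl2, PBS) and 76.3% (Cxcl3, PBS), and the epithelial-like share of Cxcl5 was 72.04% (PBS). The fibroblast-like share of Cxcl12 was 19.6% and 100% (ranked) and 31.4% and 37.5% (without the highest cell). Genes past 2-fold in neutrophil-like cells numbered 714, and 1154 with at least 20 UMIs or 6064 with at least 1.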

Other observations

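Ligand and receptor transcripts were also read in the same thinned cells. In inflammatory cells a Cxcr2 UMI was found in 12.6% of 477 cells with a Cxcl3 UMI and 23.5% of 506 cells without one in PBS, and in 19.3% of 197 and 29.9% of 271 cells in cmExoaCD11b. In hypoxic cells the shares were 15.9% and 20.6% in PBS, and 24.5% and 24.7% in cmExoaCD11b. In immature cells the order was the opposite, at 14.3% and 9.13% in PBS and 21.7% and 19.1% in cmExoaCD11b. For Cxcl2 in inflammatory cells the shares were 18.3% of 966 cells with and 11.8% of 17 cells without a Cxcl2 UMI in PBS, and 25.4% of 453 and 26.7% of 15 cells in cmExoaCD11b. Over all neutrophil-like cells they were 22.5% and 13.2% in PBS and 33.8% and 22.9% in cmExoaCD11b. Immature cells had the same order, at 10.8% and 8.2% in PBS and 22.0% and 16.8% in cmExoaCD11b. Mature cells had the opposite order, at 36.8% of 693 and 41.9% of 62 cells in PBS, and 46.7% of 895 and 58.6% of 111 cells in cmExoaCD11b. The part of the stage mix in the shares over all cells was not tested. For Cxcl1 in inflammatory cells the shares were 21.6% of 51 and 18.03% of 932 cells in PBS, and 21.4% of 14 and 25.6% of 454 cells in cmExoaCD11b. The order thus differed between ligands, stages and libraries, and these shares are descriptions of cells of 1 library each, without a test.

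Ackr3, the scavenger of CXCL12, stood at 2.22 CPM in PBS and 0.118 CPM in cmExoaCD11b in neutrophil-like cells. Epithelial-like cells held 134 UMIs in PBS (110.3 CPM) and 9 in cmExoaCD11b (14.1 CPM), and macrophage-like cells 155 UMIs (41.2 CPM) and 21 UMIs (29.7 CPM). The few fibroblast-like cells held 11 UMIs (67.8 CPM) and 33 UMIs (220.9 CPM), and the few endothelial-like cells 1 UMI and 15 UMIs (393 CPM). Ppbp in PBS lay mainly in macrophage-like cells, with 345 of 581 UMIs, against 1 of 23 UMIs in cmExoaCD11b. Both genes were named here after their values had been seen.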
